A study of Mus musculus with 6 samples.

Results

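This report describes 138 single cells that carried RNA of Rag1, Rag2 or Dntt but little Cd3, out of 60671 cells from 6 libraries of developing T-cell progenitors. The cells were selected on measured values. A cell belonged to the population if its unique molecular identifiers (UMIs, 1 per captured RNA molecule) of Rag1, Rag2 and Dntt summed to at least 2 and those of Cd3d, Cd3e and Cd3g to at most 1, among cells in which 200 or more genes were detected, no more than 2000 UMIs were counted and mitochondrial genes gave no more than 30% of them. They are called Rag/Dntt cells here, and they made up 0.227% of all cells (95% Clopper-Pearson interval 0.191 to 0.269%).

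Rag1 and Rag2 encode the 2 subunits of the recombinase that cuts DNA at antigen receptor gene segments, and Dntt encodes TdT, the polymerase that adds untemplated nucleotides at the joints. T-cell progenitors switch these genes on as they commit to the lineage and prepare to rearrange T-cell receptor genes, and the CD3 chains, which carry the signal of the assembled receptor, rise around the same steps. Innate lymphoid cells (ILCs), to which uncommitted progenitors can also give rise, do not need the recombinase to form.

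The progenitors came from bone marrow of C57BL/6 mice aged 2 to 4 months, male and female combined, with 6 to 8 mice per genotype. WT mice were Bcl11b YFP/YFP and ΔTE mice were Bcl11b YFPΔEnh/YFPΔEnh, so that both genotypes carried a yellow fluorescent reporter in the locus of Bcl11b, the transcription factor of T-lineage commitment, and ΔTE mice lacked in addition a distal enhancer of that gene. Cells grown on OP9-DL1, a bone marrow stromal line that presents the Notch ligand DL1, were sorted as DN1, as DN2a (Bcl11b-negative) or as DN2b (Bcl11b-positive), cultured again for 4 days on OP9-DL1 with IL-7, Flt3-L, IL-2, SCF and IL-15, and profiled by sci-RNA-seq3, a combinatorial indexing method, which the labels give as nuclear RNA. Each of the 6 combinations of genotype and starting stage gave 1 library of 3 reverse-transcription wells, so no comparison between conditions has a replicate check, and libraries of 1 genotype may share mice.

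The libraries held between 8007395 and 14555100 UMIs in all barcodes, and no barcode of a retained cell was shared between libraries. The Rag/Dntt cells were shallow, with a median of 521 UMIs and 374.5 genes, against 434 UMIs and 320 genes over all 60671 cells. Their UMI totals ran from 241 to 1557. A median of 20.8% of their UMIs was mitochondrial, and the depth-matched comparison cells described further on had 21.02%.

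The values that selected the cells lay close to the limit. Of the 138 cells, 124 had exactly 2 UMIs of the 3 genes, 14 had 3 and none had more. Just outside it, 1312 cells with at most 1 Cd3 UMI had a single UMI of the 3 genes. On the Cd3 side, 34 of the 138 had 1 Cd3 UMI, and 21 further cells reached 2 UMIs of Rag1, Rag2 and Dntt but had 2 or more of Cd3. Cells with at least 2 Cd3 UMIs were 13.2% of those with at least 2 UMIs of Rag1, Rag2 and Dntt, 11.4% of those with 1 and 2.55% of those with 0. The Cd3 limit therefore set aside a minority of the cells with RNA of the recombination genes.

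Dntt supplied most of the signal. It gave 177 of the UMIs behind the selection, Rag1 gave 79 and Rag2 gave 34, counts that are not scaled to gene length. In 73 cells (52.9%) only Dntt was seen, in 42 (30.4%) only Rag1, Rag2 or both, and in 23 (16.7%) Dntt together with 1 of the Rag genes. Rag1 and Rag2, which work as 1 complex, were seen together in 6 cells, and no cell had UMIs of all 3 genes. The most frequent pattern was 2 UMIs of Dntt alone, in 66 cells, followed by 2 UMIs of Rag1 alone, in 25. At this depth a gene without a UMI in a cell cannot be read as silent there.

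By starting stage, DN1 cultures gave few Rag/Dntt cells and DN2b cultures the highest share. The WT DN1 library held 6 among 10925 cells (0.0549%, 0.0202 to 0.119%) and the ΔTE DN1 library held 3 among 10294 (0.0291%, 0.00601 to 0.0851%). From DN2a, 41 of 19489 WT cells (0.210%, 0.151 to 0.285%) and 38 of 11594 ΔTE cells (0.328%, 0.232 to 0.450%) met the rule. From DN2b the counts were 22 of 4968 WT cells (0.443%, 0.278 to 0.670%) and 28 of 3401 ΔTE cells (0.823%, 0.548 to 1.19%). These intervals and all others given for shares and UMIs are 95% exact intervals that cover counting error only.

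The wells kept the order of the starting stages within each genotype. In WT the 3 wells ranged from 0.0335 to 0.0915% for DN1, from 0.154 to 0.275% for DN2a and from 0.322 to 0.507% for DN2b. In ΔTE they ranged from 0.0269 to 0.0314%, from 0.257 to 0.430% and from 0.582 to 1.09%. The ranges of successive starting stages did not overlap in either genotype, but wells are technical parts of 1 culture.

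**Figure D1:**
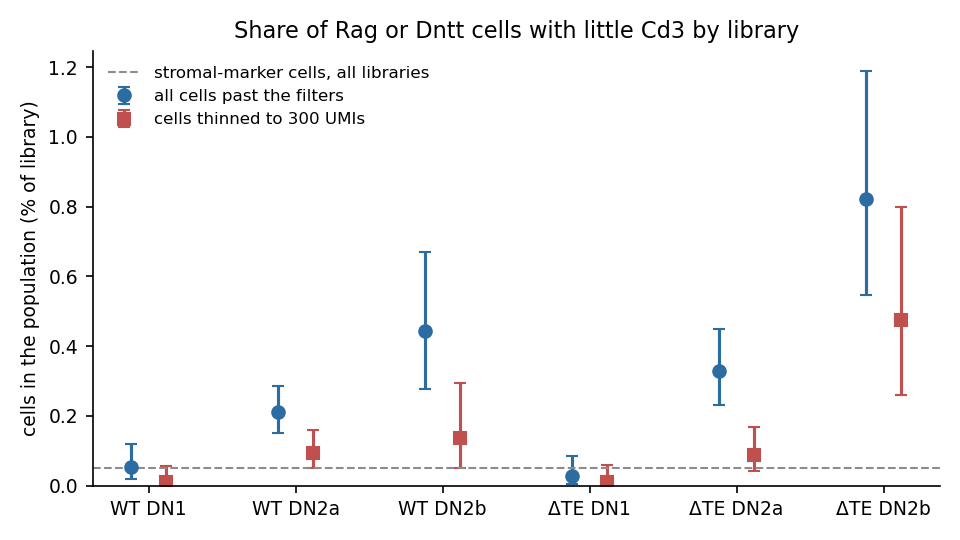
Share of Rag/Dntt cells (percent of the cells of each library, y axis) in the 6 libraries, with 95% Clopper-Pearson intervals, for all cells and for cells thinned to 300 UMIs; the dashed line marks the 0.0496% among stromal-marker cells. Both DN1 libraries lie near the line, which rests on 1 cell, and the ΔTE DN2b library is highest, at 0.823%.

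Free RNA can give a cell a stray UMI, so the share was also taken in cells that should lack the 3 genes. Among 2018 cells with at least 5 UMIs of 7 stromal genes (Col1a1, Col1a2, Col3a1, Col5a2, Fn1, Sparc and Postn), 1 met the rule (0.0496%, 0.00125 to 0.276%), and it was in the WT DN1 library. Their median depth was 665 UMIs and that of the other cells 429. Of the 2018 cells, 1175 came from WT DN2a (0 met the rule), 146 from WT DN1 (1) and 80 from ΔTE DN1 (0). The pooled background thus rests on 1 cell and is not a rate of the DN1 libraries. Its interval covers the shares of both DN1 libraries and also the 0.210% of WT DN2a, so these shares cannot be told apart from it. For a single UMI of the 3 genes the shares differed. After thinning to 300 UMIs, 0.833% of stromal-marker cells (0.477 to 1.35%) and 1.76% of other cells (1.64 to 1.88%) had at least 1.

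Depth moved the share as well. It was 0.158% (0.0885 to 0.261%) among cells under 300 UMIs and 0.432% (0.256 to 0.682%) among those with at least 1000. After each cell was thinned to 300 UMIs, which left out between 462 and 4723 shallower cells per library, 1, 14 and 6 cells of the WT DN1, DN2a and DN2b libraries still met the rule and 1, 9 and 14 of the ΔTE libraries. The thinned shares were 0.0104, 0.0948 and 0.136% in WT and 0.0108, 0.0889 and 0.476% in ΔTE.

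Set against each other, ΔTE to WT, the shares had a log2 ratio of -0.91 (interval -3.54 to 1.31) from DN1, 0.64 (-0.04 to 1.31) from DN2a and 0.89 (0.04 to 1.77) from DN2b. Only the interval from DN2b excluded 0, and it rests on 28 and 22 cells. With at most 20% mitochondrial UMIs per cell the ratio was 0.11 (-1.85 to 1.90) from DN2b and 0.05 (-0.98 to 1.00) from DN2a, and the DN2b interval also took in 0 with a cap of 2000 genes in place of 2000 UMIs (-0.01 to 1.70) or without either of 2 single wells (0.72, -0.19 to 1.69, and 0.58, -0.50 to 1.61). The median mitochondrial share over all cells was 13.3% in WT DN2a and between 20.9 and 23.9% in the other 5 libraries. With thinned cells the ratio was -0.09 (-1.48 to 1.22) from DN2a and 1.81 (0.34 to 3.48) from DN2b. Cells with exactly 1 UMI of the 3 genes, which the rule did not use, had a ratio of 0.13 (-0.18 to 0.44) from DN2b and 0.07 (-0.14 to 0.28) from DN2a. Summed over all cells from DN2b, which include the cells that the rule chose, the ratio was 0.41 (0.12 to 0.70) for Dntt, 0.67 (0.03 to 1.31) for Rag1 and -0.33 (-1.07 to 0.38) for Rag2. From DN2a it was -0.32 (-0.59 to -0.06) for Dntt, 0.29 (-0.09 to 0.67) for Rag1 and -0.07 (-0.43 to 0.29) for Rag2.

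Summed over every cell of a library, Dntt followed the same order of starting stages. These sums are of the genes of the rule and include the UMIs by which the Rag/Dntt cells were chosen. For Dntt those were 33 of 219 UMIs in WT DN2b and 50 of 183 in ΔTE DN2b. The sums are therefore no independent check of the shares. Its level was 6.67 CPM (UMIs of a gene scaled to a common total of 1000000) in WT DN1, 37.8 in WT DN2a and 80.2 in WT DN2b, and 5.93, 30.2 and 107 CPM in the ΔTE libraries. Rag1 was at 2.34, 14.5 and 15.7 CPM in WT and 3.90, 17.7 and 25.04 CPM in ΔTE, and Rag2 at 7.51, 17.9 and 19.0 CPM in WT and 8.14, 17.1 and 15.1 CPM in ΔTE. In log2 terms Dntt was 1.08 (0.83 to 1.33) higher from DN2b than from DN2a in WT and 1.82 (1.52 to 2.12) higher in ΔTE, and the same ratio was 0.12 (-0.41 to 0.63) and 0.50 (-0.04 to 1.02) for Rag1 and 0.09 (-0.39 to 0.55) and -0.17 (-0.85 to 0.45) for Rag2.

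The make-up of the Rag/Dntt cells, counted from the same 3 genes, also varied with the starting stage. From DN2a, 13 of the 41 WT cells and 19 of the 38 ΔTE cells had Rag UMIs and no Dntt. From DN2b, 4 of 22 WT cells and 1 of 28 ΔTE cells did, and 14 and 21 had Dntt alone. All 3 ΔTE DN1 cells had Rag UMIs and no Dntt.

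**Figure D2:**
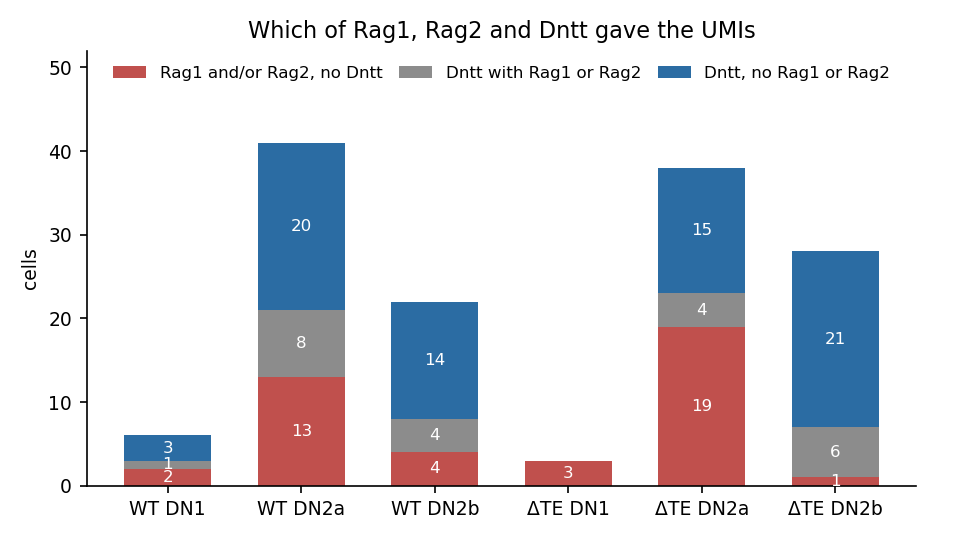
Number of Rag/Dntt cells (y axis) in the 6 libraries, split by the genes that gave their UMIs. Dntt alone accounts for 21 of 28 cells from ΔTE DN2b and 15 of 38 from ΔTE DN2a.

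For the other genes, the UMIs of these cells were summed per library and compared with 690 cells of the same libraries and the same depth (5 per Rag/Dntt cell, in steps of 100 UMIs). The matched cells had no UMI of Rag1, Rag2 or Dntt and at most 1 of Cd3. They were not matched on that Cd3 count. Among all cells open to the draw by these limits, 54470 had 0 Cd3 UMIs and 3058 had 1, against 104 and 34 of the Rag/Dntt cells. The test was edgeR's quasi-likelihood test with library as a block, so each library served as its own control, over 3696 genes with at least 30 UMIs. The 6 genes of the rule were left out. A gene was called at an adjusted p (Benjamini-Hochberg over all genes tested) under 0.05. The p-values measure the spread between these 6 libraries.

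Arpp21 and Thy1 rose and Lrmda and Angpt1 fell in the Rag/Dntt cells. The 2 genes called higher are 0.0541% of the genes tested, as are the 2 called lower, and an unadjusted p under 0.05 was reached by 35 genes (0.947%) in the higher and 221 (5.98%) in the lower direction. The median log2 fold change over all genes tested was -0.25, so fitted values are to be read against that shift. The CPM values and the list ratios below lack the scaling between sums that the fit applied. They and the fitted fold changes are therefore on unlike scales. How far this enters the list ratios was not tested, and their intervals do not cover it. Arpp21 and Angpt1 did not move the same way in all 6 libraries and are named here after their values were seen.

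Arpp21 encodes a cyclic AMP-regulated phosphoprotein that binds RNA, and its intron hosts a microRNA gene. In WT DN1, DN2a and DN2b its level was 1384, 1970 and 2829 CPM in Rag/Dntt cells against 427, 997 and 1209 CPM in matched cells. In ΔTE it was 503, 2583 and 2791 CPM against 621, 1107 and 959 CPM. It was higher in 5 of 6 libraries, and the exception, ΔTE DN1, rests on 1 UMI. The log2 fold change was 1.03 (SE 0.23, adjusted p = 0.0146), and 62.3% of Rag/Dntt cells had a UMI of it against 35.2% of matched cells.

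Thy1 encodes CD90, a surface protein that T-lineage cells carry from the DN stages on. Its level was 198, 1278 and 1266 CPM in the WT Rag/Dntt cells against 155, 418 and 535 CPM in matched cells, in the order DN1, DN2a and DN2b. In ΔTE it was 503, 973 and 1069 CPM against 311, 369 and 497 CPM. Thy1 was higher in 6 of 6 libraries, with a log2 fold change of 1.12 (SE 0.28, adjusted p = 0.0476), although each DN1 value rests on 1 UMI.

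Lrmda, a gene named for melanocyte differentiation whose annotated body spans 1036374 bases, was lower in 6 of 6 libraries. It was at 593, 799 and 149 CPM in WT Rag/Dntt cells against 1904, 1061 and 658 CPM in matched cells, and at 503, 636 and 59.4 CPM against 1553, 1273 and 450 CPM in ΔTE. Its log2 fold change was -1.44 (SE 0.30, adjusted p = 0.00613). Angpt1, which encodes the secreted ligand angiopoietin 1, had a log2 fold change of -1.21 (SE 0.28, adjusted p = 0.0200). In WT it was at 1977, 746 and 74.4 CPM against 1710, 1233 and 1025 CPM in matched cells, and in ΔTE at 0, 599 and 416 CPM against 2174, 1085 and 580 CPM. Angpt1 was thus lower in 5 of 6 libraries and higher in WT DN1.

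**Figure D3:**
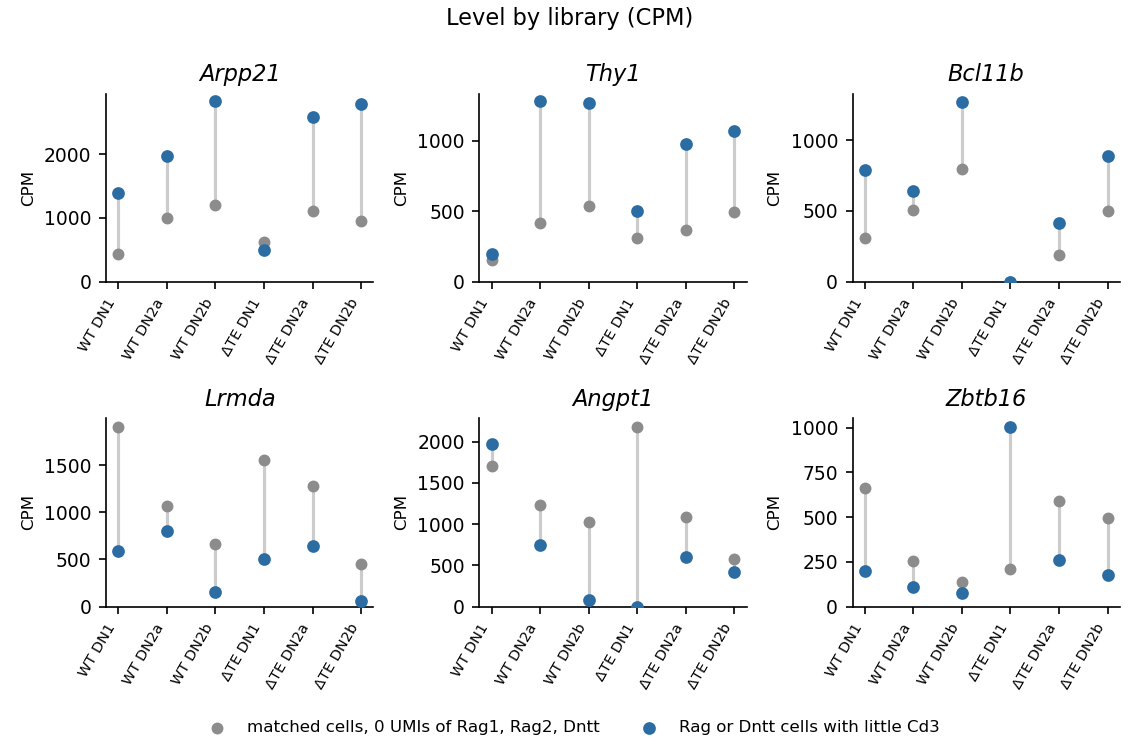
Level (summed UMIs as CPM, y axis) of 6 genes in Rag/Dntt cells (blue) and matched cells (grey) of each library. Thy1 is higher and Lrmda lower in the Rag/Dntt cells of all 6 libraries; Bcl11b and Zbtb16 did not pass the test.

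The 4 calls rested on few cells. Leaving out the WT DN2b library ended all 4, leaving out WT DN2a left Lrmda alone, and limiting cells to 1000 UMIs or to 20% mitochondrial UMIs left none. Another random draw of the matched cells ended the calls of Lrmda and Thy1 and added Tspan13 and Slc7a1, so that 2 of the 4 calls were shared. In cells just outside the limit, with 1 UMI of the 3 genes, Arpp21 was at 1392 CPM, Thy1 at 697, Lrmda at 752 and Angpt1 at 901 CPM, each between the level of the Rag/Dntt cells (2403, 1051, 471 and 580 CPM) and that of matched cells (1014, 418, 1004 and 1070 CPM). The cells with 1 UMI were not matched for depth or library. Of them, 81 came from WT DN1 and 99 from ΔTE DN1, against 6 and 3 of the Rag/Dntt cells. The part of this library mix in the levels was not tested.

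A second fit, chosen after seeing the data, lowered the limit to at least 1 UMI and so compared 1450 cells with 7245 matched cells over 9937 genes. It called 78 genes higher (0.785%) and 97 lower (0.976%), all 4 genes above among them, and most of its cells are not Rag/Dntt cells as defined here. Arpp21 had a log2 fold change of 0.66 in it and Thy1 of 0.60. Its list counts are given beside those of the 138 cells in what follows. The list levels below were not all particular to the Rag/Dntt cells. Another 1672 cells, not matched, had at least 2 Cd3 UMIs and at most 1 of the 3 genes. Their sums were 7458 CPM for T-lineage factors, 5894 for Notch, 2103 for ILC and natural killer and 3044 for T-cell signalling genes. Against the cells with 1 UMI, log2 ratios in that order were 0.08 (-0.04 to 0.21), 0.09 (-0.05 to 0.23), -0.11 (-0.35 to 0.12) and 0.37 (0.19 to 0.54).

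Genes of T-cell receptor signalling were the list that stood highest. Of 21 such genes present in the files, 13 could be tested in the 138 cells, 1 was called (Thy1) and 2 had an unadjusted p under 0.05, and their median log2 fold change was 0.46 against -0.25 over all genes. Summed, the list stood at 3575 CPM in Rag/Dntt cells and 2208 CPM in matched cells, a log2 ratio of 0.70 (0.50 to 0.89). It was higher in 6 of 6 libraries, from 1186 against 1166 CPM in WT DN1 to 4765 against 2555 CPM in WT DN2b. The list had 296 UMIs in Rag/Dntt cells and 908 in matched cells, and Thy1 alone gave 259 over both. How much of the list ratio rests on Thy1 or on the unmatched Cd3 UMIs was not tested. With 0 Cd3 UMIs in both sets, Arpp21 and Rpl23 were called and Thy1 was not. Trat1, an adaptor of the T-cell receptor complex, was at 386 CPM against 182 CPM (adjusted p = 0.596). Cd247, the zeta chain of that complex, was at 314 against 219 CPM (adjusted p = 0.933), and Lck, the kinase that starts the signal, at 254 against 204 CPM (adjusted p = 0.987). With at least 1 UMI, 3 of 15 genes tested were called higher (Lat, Thy1 and Trat1) and 0 lower.

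Ptcra, which encodes the pre-T-cell receptor alpha chain, had 0 UMIs in the 82807 UMIs of the Rag/Dntt cells and 0 in matched cells. Cd4, Cd8a and Cd2 likewise had 0 UMIs in both. A count of 0 covers only what this depth could show.

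Notch receptors and targets summed to 5785 CPM in Rag/Dntt cells and 4724 CPM in matched cells, a log2 ratio of 0.29 (0.14 to 0.44). None of 9 genes tested was called, 2 had an unadjusted p under 0.05 in the higher direction, and the median log2 fold change was -0.11. Gfra1, a glial growth factor receptor, was at 350 CPM in Rag/Dntt cells and 109 CPM in matched cells, with a log2 fold change of 1.45 (SE 0.46, adjusted p = 0.220). Notch1 itself was at 495 against 272 CPM (0.70, SE 0.35, adjusted p = 0.706). Il2ra, the alpha chain of the IL-2 receptor and the marker of the DN2 stage, was abundant in both, at 3055 and 2713 CPM, with a fitted log2 fold change of -0.11 (adjusted p = 0.9496). It gave 253 of the 479 UMIs of the list in Rag/Dntt cells, so the sum leans on it. With at least 1 UMI, Notch1 and Gfra1 were 2 of 13 genes called higher.

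Transcription factors of the T lineage summed to 7415 CPM against 6577 CPM, a log2 ratio of 0.17 (0.04 to 0.30). Of 20 genes, 13 were tested, 0 were called, and 1 in the higher and 2 in the lower direction had an unadjusted p under 0.05. Their median log2 fold change was 0.08. Runx1 was at 1679 CPM against 1359 CPM (0.08, adjusted p = 0.968), Myb at 1026 against 727 CPM (0.27, adjusted p = 0.908) and Sox4 at 797 against 625 CPM (0.14, adjusted p = 0.948). Tox, a factor of several lymphoid lineages, was at 543 against 931 CPM (-1.01, SE 0.29, adjusted p = 0.200). Ets1 was the gene with the unadjusted p in the higher direction, at 193 against 43.8 CPM (adjusted p = 0.220), and Gata3 was the other in the lower, at 109 against 219 CPM (adjusted p = 0.627). Ets1 and Gata3 are named here after their values were seen. With at least 1 UMI, Bcl11b, Runx1 and Myb were called higher and Tox lower, of 18 tested.

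Genes of ILCs and natural killer cells stood low. Of 22 genes, 12 had a UMI in the Rag/Dntt cells and 10 were tested; 0 were called, 3 had an unadjusted p under 0.05 in the lower direction, and the median log2 fold change was -1.21. Summed, the list stood at 2029 CPM against 2815 CPM, a log2 ratio of -0.47 (-0.71 to -0.24), and it was lower in 5 of 6 libraries. Zbtb16, which encodes PLZF, a factor of ILC precursors, was at 193 CPM against 418 CPM (-1.29, SE 0.41, adjusted p = 0.220), lower in 5 libraries and higher in ΔTE DN1, where it had 2 UMIs. Gzmb, a cytotoxic granule protease, was at 72.5 against 248 CPM (-1.91, SE 0.59, adjusted p = 0.220). Cd160, a receptor of killer cells named after its values were seen, was at 48.3 against 165 CPM (-1.91, SE 0.71, adjusted p = 0.501). Gzma, a protease related to Gzmb, did not follow these genes, at 1026 against 948 CPM (-0.13, adjusted p = 0.949). Nkg7 did not either. It was higher in 3 libraries and lower in 3, with log2 fold changes from -0.45 to 0.11 when 1 library was left out. With at least 1 UMI, 6 of 16 genes were called lower (Zbtb16, Id2, Rora, Icos, Gzmb and Tyrobp) and 0 higher.

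**Figure D4:**
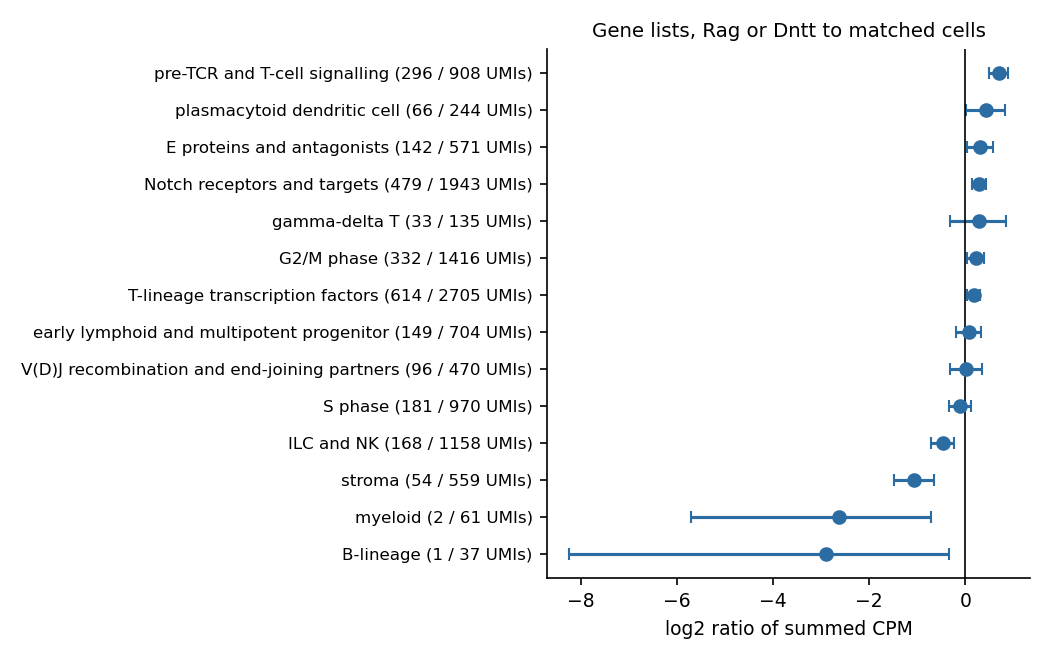
Log2 ratio of the summed CPM of each gene list, Rag/Dntt cells to matched cells (x axis), with 95% exact intervals for counting error; the labels give the UMIs in Rag/Dntt cells and in matched cells. The T-cell signalling list is highest, at 0.70, and the B-lineage and myeloid lists, at the bottom, rest on 1 and 2 UMIs. The ratios lack the scaling between sums that the fit applied.

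Partners of the recombinase in end joining gave no call. Of 14 genes, 7 were tested and 0 were called, and the summed list was at 1159 CPM in Rag/Dntt cells and 1143 CPM in matched cells, a log2 ratio of 0.02 (-0.31 to 0.34). Hmgb1, a DNA-bending protein that assists RAG cutting, was at 314 against 318 CPM, and Prkdc, the DNA-dependent protein kinase, at 109 against 163 CPM (adjusted p = 0.870). Atm, the kinase that responds to the breaks, was at 72.5 against 124 CPM (adjusted p = 0.863). With at least 1 UMI, Xrcc6, which encodes the Ku70 end-binding protein, was the 1 gene of 13 called higher.

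E proteins, which drive Rag transcription in lymphoid cells, and their antagonists gave 0 calls among 6 genes tested and summed to 1715 against 1388 CPM (log2 ratio 0.30, 0.03 to 0.57). The sum pools E proteins with their antagonists, and the median fitted log2 fold change of the 6 genes was -0.53. Tcf12, which encodes HEB, was at 894 CPM against 613 CPM (0.28, adjusted p = 0.912) and Tcf4 at 507 against 297 CPM (0.52, adjusted p = 0.830). Lmo4 and Lyl1 were lower in 4 and 3 libraries and higher in 1 and 2. Leaving out 1 library gave them log2 fold changes from -0.89 to -0.16 and from -0.79 to -0.34. The fit with at least 1 UMI called 1 of 10 genes lower (Id2) and 0 higher. Among early progenitor genes, 6 of 17 were tested and 0 called, and the sum was 1799 against 1712 CPM (log2 ratio 0.07, -0.19 to 0.33). Erg was at 362 against 350 CPM (adjusted p = 0.967) and Il7r, the IL-7 receptor, at 229 against 112 CPM (adjusted p = 0.853). In the fit with at least 1 UMI, Erg and Il7r were called higher and Bcl11a lower, of 15 tested.

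Cycling genes gave no call. Of 15 genes of S phase, 14 were tested and 0 called, and the sum was 2186 against 2358 CPM (log2 ratio -0.11, -0.35 to 0.12). The G2/M list summed to 4009 against 3443 CPM (0.22, 0.04 to 0.39), with 0 of 14 called. Mki67 was at 797 against 695 CPM and Top2a at 1051 against 955 CPM. The fit with at least 1 UMI called 0 of 15 genes on either list.

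Rag1, Rag2 and Dntt are also used by B-cell progenitors and Dntt by other lymphoid precursors, so markers of those cells were counted. Of 13 B-lineage genes in the files, the Rag/Dntt cells had 1 UMI in all, of Cd79b. Ebf1, Pax5, Igll1 and Vpreb1 were each at 0. Matched cells had 37 B-lineage UMIs, 27 of them of Ebf1. The fit with at least 1 UMI called 1 of 3 B-lineage genes lower (Ebf1) and 0 higher. Plasmacytoid dendritic cell genes summed to 797 against 593 CPM (log2 ratio 0.43, 0.01 to 0.82), of which 42 of 66 UMIs were Tcf4, also on the E-protein list, while Siglech was at 0 in both. Of 10 gamma-delta T-cell genes, 6 were in the files, 3 were tested and 0 called, and they summed to 399 against 328 CPM (log2 ratio 0.28, -0.32 to 0.84). The fit with at least 1 UMI called 0 of 8 plasmacytoid dendritic cell genes. Of 5 gamma-delta genes it called 1 higher (5830411N06Rik) and 1 lower (Maf).

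Markers of other cells moved with the comparison. Stromal genes, from OP9-DL1 cells or their free RNA, summed to 54 UMIs in Rag/Dntt cells (652 CPM) and 559 in matched cells (1359 CPM), with 9 of 13 genes seen. The log2 ratio was -1.06 (-1.49 to -0.65), further from 0 than the -0.47 of the ILC and natural killer list. Of 7 genes tested 0 were called and 5 had an unadjusted p under 0.05 in the lower direction. Their median log2 fold change was -1.27. The fit with at least 1 UMI called 6 of 10 lower (Col1a1, Col1a2, Fn1, Sparc, Cxcl12 and Bgn) and 0 higher. Over the 6 libraries the stromal sum ran from 0 to 4546 CPM in Rag/Dntt cells and from 207 to 1973 CPM in matched cells. It was higher in Rag/Dntt cells in WT DN1 (4546 against 1438 CPM) and ΔTE DN2b (713 against 402 CPM). The part of stromal RNA in the other list ratios was not tested. Col5a2, Postn, Lum and Dll1 were at 0 in Rag/Dntt cells. Of 16 myeloid genes, 2 were seen, with 1 UMI each of Lyz2 and Cd68, against 61 UMIs in matched cells. The fit with at least 1 UMI called 0 of 8 myeloid genes. With cells of at least 2 stromal or myeloid UMIs left out of both sets, which kept 132 Rag/Dntt cells, Arpp21 and Lrmda were called again and Thy1 and Angpt1 were not.

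Among the genes the study names, those with at least 50 UMIs in the Rag/Dntt cells were Bcl11b, Runx1, Gzma, Thy1, Pde4d, Camk1d, Il2ra, Etv6 and Rnf220, and of these only Thy1 was called. Pde4d, a phosphodiesterase, was at 1485 CPM against 1870 CPM (-0.65, SE 0.24, adjusted p = 0.445). Camk1d stood at 2645 against 2414 CPM, Etv6 at 1304 against 1106 CPM and Rnf220 at 1679 against 1558 CPM, with adjusted p-values of 0.944, 0.984 and 0.906. Over the whole list, 22 genes were tested with at least 1 UMI. Of these, 3 were called higher (Bcl11b, Runx1 and Thy1) and 4 lower (Zbtb16, Id2, Rora and Icos). This list was chosen by the study on these libraries and is not independent evidence.

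Bcl11b, the gene whose enhancer ΔTE cells lack, was at 713 CPM in Rag/Dntt cells and 423 CPM in matched cells, a log2 fold change of 0.57 (SE 0.30, unadjusted p = 0.0557, adjusted p = 0.732). It was higher in 5 of 6 libraries, and ΔTE DN1 had 0 UMIs in both sets. With at least 1 UMI of the 3 genes it was called higher.

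Within the Rag/Dntt cells Bcl11b was lower in ΔTE than in WT by estimate, without a difference beyond counting error. WT cells had 4, 12 and 17 UMIs from DN1, DN2a and DN2b, which is 791 CPM (215 to 2024), 639 CPM (330 to 1116) and 1266 CPM (737 to 2026). ΔTE cells had 0, 11 and 15 UMIs. The interval of the 0 UMIs of ΔTE DN1 reaches 1856 CPM, so no ratio is given there. From DN2a ΔTE was at 412 CPM (206 to 737), a log2 ratio to WT of -0.63 (-1.96 to 0.67), and from DN2b at 891 CPM (499 to 1469), a ratio of -0.51 (-1.61 to 0.58). Matched cells had ratios of -1.42 (-2.18 to -0.69) and -0.68 (-1.30 to -0.06). Leaving out 1 well turned the DN2a ratio in Rag/Dntt cells to 0.90.

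**Figure D5:**
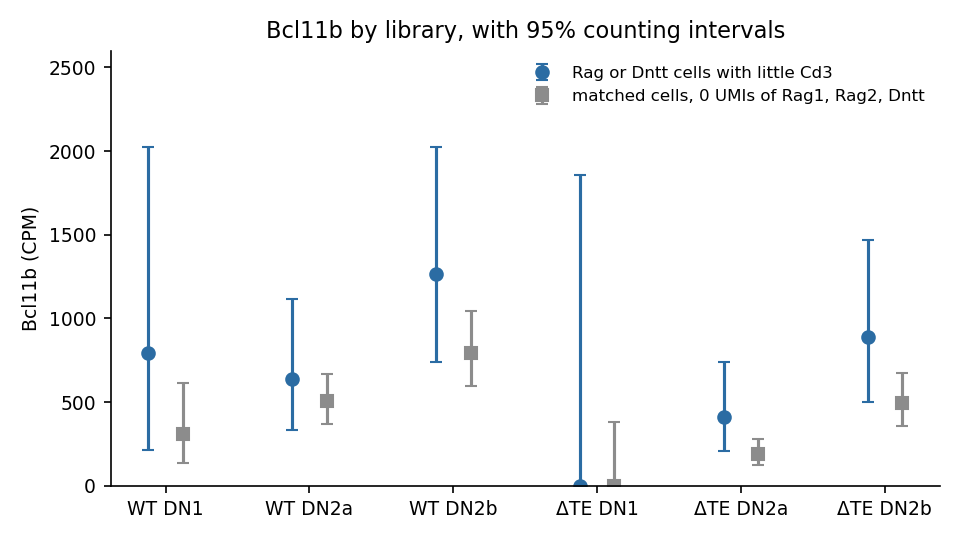
Bcl11b level (UMIs as CPM, y axis) in Rag/Dntt cells and in matched cells of each library, with 95% exact Poisson intervals. The point of Rag/Dntt cells is above that of matched cells in the 5 libraries with UMIs, and the intervals overlap.

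For other genes, a change between genotypes was listed if it passed 1.5-fold in the same direction from all 3 starting stages, among 118 genes with at least 50 UMIs in the Rag/Dntt cells. There is no test for it. Higher in ΔTE by this rule were 4 genes (3.39%), Plxdc2, mt-Cytb, Serinc3 and Gzma, and 1 gene (0.847%), Ncor1, was lower. Ratios are on a log2 scale with 0.5 added to each count, and each DN1 value rests on few UMIs.

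Gzma had 5, 13 and 6 UMIs in WT and 3, 41 and 17 in ΔTE, in the order DN1, DN2a and DN2b. In CPM that is 988, 692 and 447 against 1509, 1535 and 1010. Its log2 ratios were 0.70, 1.11 and 1.10, and in matched cells 0.45, 0.92 and 0.89, so the same direction was present in cells without Rag or Dntt UMIs. The interval from DN2a, 0.22 to 2.17, excluded 0, and those from DN1 and DN2b did not.

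The mitochondrial gene mt-Cytb had ratios of 1.62, 1.01 and 0.82, and 0.19, 0.48 and 0.51 in matched cells. The median mitochondrial share of the Rag/Dntt cells was 22.1, 11.8 and 24.1% in WT and 23.3, 22.4 and 24.6% in ΔTE, and its part in these ratios was not tested. Plxdc2, a membrane protein, had 2.08, 0.65 and 0.83 against 1.03, 0.19 and 0.03 in matched cells, and Serinc3 had 1.35, 0.96 and 0.64 against 0.11, -0.05 and 0.50. Ncor1, a corepressor of nuclear receptors, had -1.46, -0.82 and -1.67 against -0.96, 0.10 and 0.04. Whether these ratios differ from those of matched cells was not tested.

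Cells with Rag UMIs and no Dntt (42) were next compared with cells with Dntt and no Rag UMIs (73). With edgeR's quasi-likelihood test and library as a block, 0 of 203 genes were called in either direction (0.0%), and 0 in the higher (0.0%) and 3 in the lower direction (1.48%) had an unadjusted p under 0.05. The 3 were Hnrnpu, Slc9a9 and mt-Nd4, named after their values were seen. Hnrnpu, an RNA-binding nuclear protein, had a log2 fold change of -2.10 (SE 0.84, adjusted p = 0.972). DESeq2 also called 0 genes.

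The same was done for cells on the other side of the Cd3 limit. Only 19 Rag/Dntt cells of 4 libraries could be depth-matched to 19 cells with at least 2 Cd3 UMIs, which left 26 genes to test. Of these, 0 were called in either direction (0.0%), 2 had an unadjusted p under 0.05 in the higher direction (7.69%) and 0 in the lower (0.0%), and DESeq2 called 0. Sums were also taken, without matching, over all 138 Rag/Dntt cells and the 21 cells with Cd3. The T-cell signalling list stood at 3575 CPM (3179 to 4006) in the first and 3907 CPM (2881 to 5180, 48 UMIs) in the second. The ILC and natural killer list was at 2029 CPM (1734 to 2360) and 1140 CPM (623 to 1912, 14 UMIs). For each list the intervals overlap.

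Reads of overlapping genes could not be separated by strand in these counts as far as the sources say. In GENCODE M21 the gene B230118H07Rik overlaps both Rag1 and Rag2, while Dntt, Thy1, Bcl11b and Zbtb16 overlap no other annotated gene. Arpp21, Lrmda and Angpt1 have 2, 6 and 1 genes on the opposite strand within their bodies. On the same strand, Arpp21 overlaps Mir128-2 and Lrmda overlaps Gm47601.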

How the data were processed

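Single-cell RNA was measured in 6 libraries, and the authors deposited a count of UMIs per gene and barcode, without normalization or a filter on cells. The submitters' processing notes name the build mm9; the aligner, its version and whether counting used strand are not given in the sources used here. Since the annotation at hand is GENCODE M21 on another build, it served only to find overlapping genes, and no coordinates are printed.

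The limits on genes, UMIs and mitochondrial UMIs per cell come from the study's methods and the definition of the population. No doublet caller was run, so doublets were limited only by the cap of 2000 UMIs. The definition, the gene lists and the tests were chosen with earlier results of these data known. Samples were grouped by their labels.

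UMIs were summed per library over the Rag/Dntt cells and over comparison cells drawn with a fixed seed within depth bins of 100 UMIs. The sums were scaled to a common total of 1000000 (CPM) without the 6 genes of the rule. They were tested with edgeR 4.0.16 (R 4.3.3, TMM scaling, quasi-likelihood, library as a block, at least 30 UMIs over all sums) with Benjamini-Hochberg adjustment, and DESeq2 1.42.0 was an alternative. SE is the log2 fold change divided by the root of its F statistic. Intervals are exact at 95% (Clopper-Pearson for shares, Poisson for UMIs, conditional binomial for ratios, scipy 1.17.1) and cover counting error only. Libraries held 8007395 to 14555100 UMIs, but the Rag/Dntt cells only 82807 without the rule genes, which sets the precision.

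The fit was tested on simulated data. The simulated sums had 1 common spread for all genes, the same gene levels in all libraries and no random draw of matched cells. The rates below hold for that simpler setting and do not measure how far the real calls can be relied on. For the comparison with matched cells (3709 genes tested) it recovered 53% of 100 genes changed 4-fold and 5% of 100 changed 2-fold, with 0 unchanged genes called. For Rag-only against Dntt-only cells (230 genes tested) it recovered 0% of 20 genes changed 4-fold, with 0 unchanged genes called. Across the Cd3 limit (26 genes tested) it recovered 50% of 2 genes changed 4-fold and 33.3% of 3 changed 2-fold, with 1 unchanged gene called, so that fit is too small to be relied on.

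Named genes were those called with at least 50 UMIs and the same direction in all 6 libraries, the genes of each list with the most UMIs, the genes the study names with at least 50 UMIs, and those past the genotype rule. Others are said to be named after their values were seen. Of the genes on the lists, 8 were not found in the files under their list names and have no values here. Alternatives covered the thresholds of the rule, depth matching, filters, scaling, tool, block and left-out libraries or wells.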

Additional observations from a re-analysis of the deposited data

Results flagged for a closer look

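From the DN1 start the share of Rag/Dntt cells was lower in ΔTE than in WT (log2 ratio -0.91), while from DN2a and DN2b it was higher. The opposite directions drew attention to it, and the difference between the starting stages was not tested. The DN1 value rests on 3 and 6 cells, its interval reaches from -3.54 to 1.31, and it was 0.06 in thinned cells.

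Cells above the cap of 2000 UMIs entered no comparison. Of 448 such cells, 4 met the rule on Rag1, Rag2, Dntt and Cd3 (0.893%, 0.244 to 2.27%). Over the 4 cells there were 4 UMIs of Rag1, 4 of Dntt and 0 of Rag2, and 1 of the 4 had at least 5 UMIs of the 7 stromal genes. The median depth of the 448 cells was 2505.5 UMIs.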

How the results depend on the processing

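Beside the 2 genes higher and 2 lower against matched cells, counts of higher and lower genes were 0 and 0 with at least 3 UMIs of the rule genes, with at most 1000 UMIs per cell, with at most 20% mitochondrial UMIs and without the library block. They were 1 and 1 with 0 Cd3 UMIs and with the DESeq2 Wald test, 0 and 1 with DESeq2 size factors, 2 and 2 with another draw of matched cells (2 of the 4 genes shared), 0 and 12 without a filter on low counts and 0 and 19 without depth matching. One gene was higher without mitochondrial genes and 1 without stromal-marker and myeloid-marker cells, with 2 lower in each. Leaving out 1 library gave 0 to 2 higher and 0 to 3 lower. The limit of at least 1 UMI, chosen after seeing the data, gave 78 and 97, and Erg, at -0.15 in the 138 cells, was called at 0.44 there. Over the alternatives set at the start Lrmda was called in 11 of 18 (adjusted p 3.27e-05 to 0.904), Arpp21 in 7 of 18 (0.000145 to 0.936), Angpt1 in 6 of 18 (0.000194 to 0.908) and Thy1 in 2 of 17 (0.00668 to 0.904), each in its own direction throughout. The cause of the lost calls was not tested.

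Rag-only against Dntt-only cells gave 1 gene higher and 1 lower with at most 20% mitochondrial UMIs, and 0 under the other alternatives, as did the comparison across the Cd3 limit under all of its own. Leaving out 1 library gave 0 to 0 in both.

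The ΔTE to WT ratio of shares from DN2a was 2.33 with at least 3 UMIs and -0.093 in thinned cells, and that from DN2b 1.81 in thinned cells. With at most 20% mitochondrial UMIs they were 0.05 and 0.11. Leaving out 1 well gave -1.13 to -0.43 from DN1, 0.48 to 0.93 from DN2a and 0.58 to 1.10 from DN2b, and for Bcl11b -1.50 to 0.90 from DN2a and -0.85 to -0.10 from DN2b. With at least 3 UMIs the share ratio from DN1 and the Bcl11b ratio from DN2b could not be computed, nor any Bcl11b ratio from DN1. The genotype rule gave 3 higher and 4 lower genes with TMM scaling, where Gzma no longer passed, and 1 and 0 with at least 100 UMIs.

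No paired analysis was possible because the groups share only 1 replicate number. The comparison with matched cells was itself blocked on library, and the ΔTE to WT differences within the 3 starting stages were given as values without a fit.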
